A study of Homo sapiens with 40 samples.

Results

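LINC-ROR, LINC00458, LINC01108, LNCPRESS1, LINC02335, ESRG and JAKMIP2-AS1 are long non-coding RNAs (lncRNAs) known for their expression in human embryonic stem cells. The 7 genes were taken by name from the 57939 genes of the total RNA table and, because LINC00458, LINC01108 and LINC02335 carry clone names there, by gene identifier from the 58336 genes of the polyA RNA table. All 7 were found in both tables. The cells were wild-type H1, a human embryonic stem cell line in long use, grown on matrigel in mTeSR1 medium without feeder cells. They were sampled undifferentiated (day 0) and on days 3 and 5 of a definitive mesoderm protocol, in which BMP4 was given first and bFGF afterwards, in serum-containing medium. On each day a kit gave, in this order, a cytoplasmic (CE), a membrane (ME), a soluble nuclear (SNE) and a chromatin-bound nuclear extract (CBNE, released with micrococcal nuclease), and then an extract of the pellet (PE), called cytoskeletal in the protocol. INPUT libraries bear no extract name and are taken here as unfractionated RNA. Total RNA gave 36 libraries, 2 for each of 18 combinations of fraction and day, and polyA RNA gave 4, 2 of nucleus and 2 of cytoplasm on day 0. The labels do not say that the libraries of a group came from separate cultures, so p-values measure the spread between these libraries, which may be technical.

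Pluripotent stem cells are held in their state by a small set of transcription factors, among them POU5F1, SOX2 and NANOG, and the genes of several lncRNAs are transcribed in that state and shut down when the cells differentiate. LncRNAs differ in where they act: some stay at chromatin, some bind proteins in the nucleus, and some bind microRNAs or proteins in the cytoplasm. LINC-ROR is known as a sponge for a microRNA that targets the mRNAs of the core factors, and it was found through its role in reprogramming. LINC00458 and LINC01108 were described as lncRNAs of embryonic stem cells, LINC00458 with SMAD proteins and LINC01108 with SOX2 and the Polycomb subunit SUZ12 as reported partners. LNCPRESS1 is reported to keep the deacetylase SIRT6 away from chromatin. ESRG is a widely used RNA marker of human pluripotent cells and arises from an endogenous retrovirus of the HERVH family. LINC-ROR and LINC00458 are also known to carry sequence of this family. RNAs that arise from such repeats can share reads with each other and with other genes, so the levels of these 3 are less certain, and how the authors' counting treated reads that match several genes is not given in the sources used here.

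RefSeq promoter windows, 250 bases before to 50 bases after the start on GRCh38.p14, were at hand for 2 of the 7 genes, LINC01108 and LNCPRESS1. They are shown so that the bases at the start of these genes can be read beside their values. The LINC01108 window is chr6:14285405-14285704 on the minus strand and the LNCPRESS1 window is chr7:101299363-101299662 on the plus strand. Capitals mark the match to ACAAAG, a core of SOX factor motifs, which both hold on the opposite strand.
LINC01108: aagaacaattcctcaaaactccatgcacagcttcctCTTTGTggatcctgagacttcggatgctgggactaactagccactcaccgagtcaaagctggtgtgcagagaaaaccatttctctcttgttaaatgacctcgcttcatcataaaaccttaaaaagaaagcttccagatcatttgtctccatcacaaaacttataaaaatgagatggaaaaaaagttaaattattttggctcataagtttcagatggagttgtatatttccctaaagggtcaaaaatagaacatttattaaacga
LNCPRESS1: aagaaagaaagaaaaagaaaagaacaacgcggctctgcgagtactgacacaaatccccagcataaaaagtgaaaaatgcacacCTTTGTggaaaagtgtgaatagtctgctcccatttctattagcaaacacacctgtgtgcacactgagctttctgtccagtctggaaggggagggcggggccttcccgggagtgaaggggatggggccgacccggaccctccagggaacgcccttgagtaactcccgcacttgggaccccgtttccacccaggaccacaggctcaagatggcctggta

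The search covered both strands of each window, and 16.07% of the 35116 RefSeq windows held ACAAAG. The octamer ATGCAAAT, the motif of POU factors, which does not overlap ACAAAG, was in neither window and in 1.774% of all.

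Library depth bears on every value below. No read counts were used, and the TPM worth of 1 read on a transcript of 1 kb was estimated from the spacing of low values. It was 0.691 to 1.84 TPM in INPUT, CE, ME and SNE, 13.6 to 63.4 TPM in CBNE, 3.29 to 30.3 TPM in PE and 0.235 to 0.364 TPM in polyA RNA. The CBNE libraries, and those of PE on day 0, are therefore sparse, and the correlation of log2(TPM + 1) between the libraries of a group was as low as 0.660 in CBNE on day 5. The worth of 1 read falls with the length used for a gene, which the sources used here do not give. LINC02335, with 659 exon bases, had 0.628 and 0.526 TPM in CBNE of day 5, where 1 read on 1 kb was worth 50.9 to 63.4 TPM. Values this low are under 1 whole read on its exons. A longer length, with introns counted, may have been used, so read numbers of single genes are not estimated. Of the markers of the cell line, POU5F1 had 79.2 and 82.7 TPM and NANOG 222 and 227 TPM in day 0 INPUT. SOX2 was listed at 0 in all 40 libraries, which does not show that its mRNA was absent, and the cause was not tested. Markers of other cell types were read in INPUT as the summed TPM of a list, on days 0, 3 and 5. The mesoderm list (10 genes) summed to 109 to 112, 106 to 118 and 1384 to 1472 TPM, the trophoblast and amnion list (6 genes, CGB3 at 0 throughout) to 2.63 to 3.13, 91.3 to 97.0 and 433 to 443 TPM, and the endoderm list (4 genes, FOXA2 at 0 on days 0 and 3) to 8.48 to 8.89, 38.8 to 41.6 and 924 to 950 TPM. The neural list (5 genes, NEUROG2 at 0 on day 3) stayed between 2.77 and 4.22 TPM, and the fibroblast list (4 genes, DCN at 0 on day 3) summed to 502 to 513, 398 to 420 and 269 to 274 TPM. The sums other than the neural one moved with the days, and a sum can hide genes that go opposite ways. By the calls defined below, 5 of the 10 mesoderm genes were higher and 1 lower in INPUT of day 3 against day 0. Of the 3 fibroblast genes tested, 1 was higher and 1 lower. Over all tested genes, 4.06% were higher and 3.38% lower. The part of these lists in the changes of the lncRNAs was not tested.

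The first comparison asked how the lncRNAs changed in unfractionated RNA during differentiation. All 7 were highest on day 0 and all 7 fell by day 5, and the course in between differed from gene to gene. A gene was called when its Benjamini-Hochberg adjusted p in limma was under 0.05 and its difference of log2(TPM + 1) at least 1 in size. In INPUT of day 3 against day 0, 6 of the 7 genes were called, all lower, where 7.44% of the 24735 tested genes were called, 4.06% higher and 3.38% lower. On day 5 against day 0 all 7 were lower, where 12.8% of genes were called, 6.15% higher and 6.67% lower. The median log2 difference of the 7 was −3.71 on day 3 and −4.51 on day 5, against −0.01 and −0.08 over all tested genes. In bulk RNA, fewer cells of a type and less RNA per cell cannot be told apart.

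ESRG was the most abundant of the 7. It had 3291 and 3213 TPM on day 0, 1385 and 1426 TPM on day 3 and 430 and 457 TPM on day 5. Its days did not overlap, and 13.7% of the day 0 level was left on day 5. The log2 difference from day 0 was −1.21 ± 0.33 on day 3 (SE, adjusted p = 0.0134) and −2.87 ± 0.33 on day 5 (adjusted p = 7.8e-07). The day 3 call was lost, with adjusted p between 0.0679 and 0.0795, when any 1 of the 4 INPUT libraries of days 0 and 3 was left out.

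LNCPRESS1 kept the largest share of its day 0 level on day 3 (68.8%), with 11.9% left on day 5, when ESRG kept more. LNCPRESS1 had 439 and 394 TPM on day 0, 273 and 300 TPM on day 3 and 53.8 and 45.4 TPM on day 5. The day 3 libraries lay below those of day 0 without overlap, but the difference of −0.54 ± 0.38 was not called (adjusted p = 0.476). By day 5 it had fallen by 3.05 ± 0.38 on the log2 scale (adjusted p = 3.0e-06).

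LINC01108 fell stepwise, with 249 and 255 TPM on day 0, 52.1 and 59.6 TPM on day 3 and 10.6 and 9.61 TPM on day 5. The log2 difference on day 3 was −2.16 ± 0.69 (adjusted p = 0.0372) and on day 5 −4.51 ± 0.69 (adjusted p = 3.4e-05). The error of a gene pools its spread over all 18 groups, the sparse ones included, and is wide for LINC01108. For comparisons with CBNE or PE the same pooling can make the error too small. On day 0 the libraries of a group correlated at 0.706 in CBNE and 0.695 in PE, against 0.925 in SNE. Its day 3 call was lost when any 1 of the 4 libraries was left out (adjusted p 0.128 to 0.164) and under 5 other settings (adjusted p 0.0504 to 0.289), with the direction kept each time.

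LINC-ROR, LINC02335 and JAKMIP2-AS1 were near 50 TPM on day 0 and had lost most of it by day 3. LINC-ROR had 52.0 and 55.8 TPM on day 0, 2.76 and 3.68 TPM on day 3 and 0.595 and 0.331 TPM on day 5. LINC02335 had 46.9 and 50.8 TPM on day 0, 1.67 and 1.65 TPM on day 3 and 0.329 and 0.177 TPM on day 5. JAKMIP2-AS1, transcribed across the coding gene JAKMIP2 from the other strand, had 46.6 and 49.1 TPM on day 0, 0.713 and 0.653 TPM on day 3 and 0.522 and 0.799 TPM on day 5. On day 0 the ranges of LINC02335 and JAKMIP2-AS1 overlapped, so the order of these neighbours is not set by the data, while LINC-ROR lay just above both. From day 0 to day 3 the log2 differences were −3.71 ± 0.29 for LINC-ROR, −4.23 ± 0.22 for LINC02335 and −4.86 ± 0.17 for JAKMIP2-AS1, with adjusted p of 9.1e-09 or less. On day 5 LINC-ROR and LINC02335 were lower again than on day 3 (log2 −1.53 ± 0.29 and −1.09 ± 0.22), whereas JAKMIP2-AS1 differed by −0.02 ± 0.17 (adjusted p = 1). All 3 were then low in INPUT of day 5, under the worth of 1 read on 1 kb (1.03 to 1.18 TPM). The reads behind these levels are not known, because the length used for each gene is not given. With introns counted, 1 read on these genes would be worth less, so these levels need not lie at the floor.

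In INPUT, LINC00458 was the 1 gene of the 7 that was higher on day 5 than on day 3. It had 308 and 315 TPM on day 0, 6.78 and 7.63 TPM on day 3 and 20.6 and 19.1 TPM on day 5. The fall by day 3, −5.25 ± 0.43 on the log2 scale, had an adjusted p of 1.5e-08, and the difference of day 5 from day 3 was 1.34 ± 0.43 (adjusted p = 0.0476). That second call was lost when any 1 of the 4 libraries was left out (adjusted p 0.153 to 0.217), as was that of LINC01108 (−2.35 ± 0.69, adjusted p = 0.0284, then 0.103 to 0.161), with the directions kept. The call of LINC00458 was lost in 8 of 11 alternatives, among them a pseudocount of 0.1 (adjusted p = 0.431), no filter on low values (adjusted p = 0.0658) and totals without mitochondrial and structured RNA (adjusted p = 0.101). That of LINC01108 was also lost with a pseudocount of 0.1 (adjusted p = 0.248) and with those totals (adjusted p = 0.0539). In that comparison, chosen after the values were seen, 6 of the 7 were called, 1 higher and 5 lower, where 4.81% of all genes were called, 2.49% higher and 2.32% lower. The separate libraries of the extracts showed the same order. LINC00458 had 27.3 and 25.4 TPM on day 5, against 7.84 and 7.33 TPM on day 3, in CE. It had 11.9 and 13.9 TPM on day 5, against 4.99 and 3.09 TPM on day 3, in ME, and 25.1 and 27.8 TPM on day 5, against 11.2 and 11.3 TPM on day 3, in SNE. The days did not overlap in any of these 3 extracts. JAKMIP2-AS1, at under 1 TPM, was also higher on day 5 than on day 3 without overlap in CE (0.301 and 0.385 TPM, against 0.139 and 0.215 TPM) and in ME (0.390 and 0.602 TPM, against 0.223 and 0.290 TPM), while its SNE libraries overlapped.

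**Figure D1:**
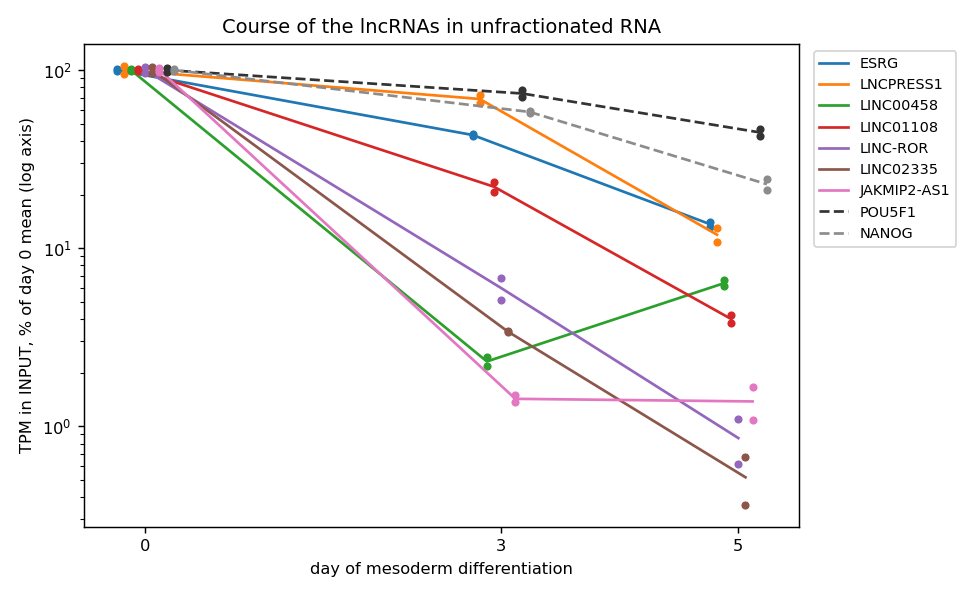
TPM in INPUT as a percentage of each gene's day 0 mean (log axis) against the day of differentiation, for the 7 lncRNAs (solid lines) and the mRNAs of POU5F1 and NANOG (dashed). Points are the 2 libraries of a day, shifted sideways for legibility, and lines join their means; LINC00458 is the one line that turns upward, with 6.37% on day 5, against 2.31% on day 3.

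The mRNAs of core factors were read in the same libraries. NANOG mRNA had 222 and 227 TPM on day 0, 132 and 129 TPM on day 3 and 54.8 and 47.7 TPM on day 5, and POU5F1 mRNA had 79.2 and 82.7, 62.7 and 56.8, and 37.6 and 34.7 TPM. Neither was called on day 3 (log2 −0.78 ± 0.32 for NANOG and −0.43 ± 0.32 for POU5F1), and both were lower on day 5 (−2.11 ± 0.32 and −1.14 ± 0.32). The difference between the lncRNAs and these mRNAs was not tested. POU5F1 has near-identical pseudogenes, so its own level is uncertain.

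Of 26 pluripotency mRNAs, 25 were tested. On day 3 against day 0, 8 were lower and 1 higher, and on day 5 16 were lower and 1 higher, with medians of −0.78 and −1.42. The transcription factor genes UTF1 (−3.48 ± 1.09) and PRDM14 (−2.47 ± 0.16) and the growth factor gene GDF3 (−1.96 ± 0.57) fell furthest on day 3, and the TGF-beta family ligand NODAL rose (1.10 ± 0.27). On day 5 UTF1 (−4.93 ± 1.09), PRDM14 (−4.54 ± 0.16) and the deubiquitinase USP44 (−3.94 ± 0.12) fell furthest, and NODAL was higher (1.69 ± 0.27).

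Of 8 mRNAs of reported partner proteins of the lncRNAs, 7 were tested, and none was called lower on either day. SMAD3, a transducer of activin and NODAL signals, was the 1 called higher (1.29 ± 0.14 on day 3 and 1.38 ± 0.14 on day 5). SIRT6 differed by 0.05 ± 0.26 and −0.05 ± 0.26, and neither was called.

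Of 10 other lncRNAs of pluripotent cells, 8 were tested. LINC01356 (−3.16 ± 0.27) and LINC00678 (−1.14 ± 0.22) fell by day 3 and PCAT14 rose (6.33 ± 0.43). By day 5 LNCPRESS2 (−3.54 ± 0.54), LINC00678 (−2.59 ± 0.22), LINC01356 (−2.08 ± 0.27) and FIRRE (−1.09 ± 0.18), which is known to organise chromatin, were lower, and PCAT14 stayed higher (6.98 ± 0.43). On day 5 against day 3, 1 of these 8 was higher, LINC01356 (1.08 ± 0.27, adjusted p = 0.0111), and 2 were lower, LNCPRESS2 (−2.42 ± 0.54) and LINC00678 (−1.45 ± 0.22), with a median of −0.71.

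The second comparison asked where in the cell the RNAs lay, through SNE against CE. On day 0, 4 of the 7 lncRNAs were higher in SNE than in CE and none was lower, where 38.7% of genes were called, 30% higher and 8.66% lower. SNE gave higher log2 values than CE for most genes, with a median of 0.53, so each difference is also given relative to that median. MALAT1, a nuclear lncRNA, was higher in SNE by 2.13 ± 0.14, and GAPDH mRNA, a cytoplasmic RNA, was lower by 2.94 ± 0.12.

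LINC02335 and JAKMIP2-AS1 had the largest differences of the 7. LINC02335 had 224 and 234 TPM in SNE, against 28.0 and 28.5 TPM in CE. JAKMIP2-AS1 had 245 and 259 TPM in SNE, against 31.3 and 33.1 TPM in CE. Their SNE levels were 8.10 and 7.82 times those in CE, and log2 differences were 2.97 ± 0.22 (adjusted p = 5.1e-10) and 2.93 ± 0.17 (adjusted p = 1.1e-11), or 2.45 and 2.40 above the median gene. Both are long genes with few exon bases (659 for LINC02335 and 2106 for JAKMIP2-AS1). Whether introns were counted is not given, so unspliced and spliced RNA cannot be told apart in these differences. JAKMIP2-AS1 shares 524 exon bases with JAKMIP2, and since no source states whether strand was used in counting, reads there cannot be told apart. If introns were counted, the same holds wherever these genes overlap. JAKMIP2 differed by 2.82 ± 0.15.

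LINC01108 had 1291 and 1324 TPM in SNE, against 239 and 245 TPM in CE, a difference of 2.43 ± 0.69 (adjusted p = 0.00539). LINC-ROR had 152 and 147 TPM in SNE, against 45.9 and 46.6 TPM in CE, a difference of 1.67 ± 0.29 (adjusted p = 5.7e-05). Relative to the median gene they were higher by 1.90 and 1.14. With the median of the tested genes set equal in all libraries, both missed the call (LINC01108 1.56, adjusted p = 0.0805, and LINC-ROR 0.80, under the size asked for). LINC01108 also missed it with a pseudocount of 0.1 (adjusted p = 0.1).

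ESRG, LINC00458 and LNCPRESS1 were not called. ESRG had 5978 and 6001 TPM in SNE, against 4002 and 4055 TPM in CE, and LINC00458 had 541 and 562 TPM in SNE, against 341 and 356 TPM in CE. In both the libraries of SNE lay above those of CE, by 0.57 ± 0.33 and 0.66 ± 0.43, which is 0.05 and 0.14 relative to the median gene, and the sign turned with equal medians (−0.30 and −0.21). Under quantile normalisation LINC00458 was instead called higher (1.599, adjusted p = 0.00448). LNCPRESS1 was the 1 gene of the 7 below CE, with 370 and 368 TPM in SNE, against 522 and 533 TPM in CE (−0.51 ± 0.38, adjusted p = 0.286), or −1.04 relative to the median gene. Equal medians made it a call (−1.39), and quantile normalisation turned its sign (0.49).

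**Figure D2:**
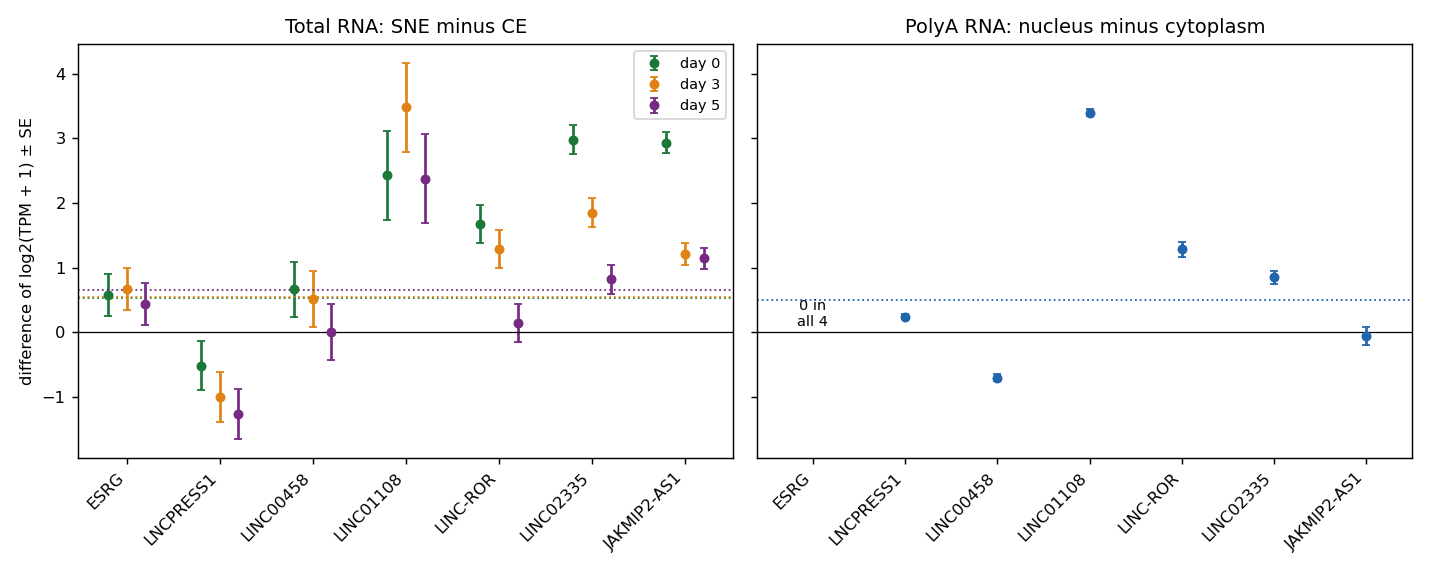
Differences of log2(TPM + 1) with standard errors for the 7 lncRNAs, left as SNE minus CE in total RNA on days 0, 3 and 5 and right as nucleus minus cytoplasm in polyA RNA on day 0 (n = 2 libraries per group). Dotted lines mark the median of all tested genes; LINC01108 lies above it in each panel and on each day, while LNCPRESS1 lies below.

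The mRNAs of the same cells were split. Of the 25 pluripotency mRNAs tested, 3 were higher in SNE (FGF2 1.62 ± 0.13, LIN28B 1.57 ± 0.18 and TERT 1.16 ± 0.14) and 9 were lower, among them UTF1 (−4.33 ± 1.09), POU5F1 (−3.25 ± 0.32) and GDF3 (−2.61 ± 0.57). Of the 8 other pluripotent cell lncRNAs tested, 4 were higher, namely FIRRE (2.67 ± 0.18), LNCPRESS2 (2.35 ± 0.54), LINC00678 (1.36 ± 0.22) and PCAT14 (1.13 ± 0.43), and none was lower. Of the partner mRNAs 3 were higher, namely SMAD2 (1.71 ± 0.15), SMAD3 (1.601 ± 0.14) and SUZ12 (1.26 ± 0.14), and 3 were lower, among them PTBP1 (−1.64 ± 0.11) and MCM2 (−1.07 ± 0.16).

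On day 3, 5 of the 7 were called between SNE and CE, 4 higher and 1 lower, where 37.2% of genes were called, 30.5% higher and 6.64% lower, and the median gene was at 0.54. LINC01108 had 211 and 232 TPM in SNE, against 18.4 and 19.5 TPM in CE (3.48 ± 0.69, adjusted p = 0.00022), so that SNE was at 11.7 times the CE level. LINC02335 had 4.10 and 4.41 TPM in SNE, against 0.450 and 0.466 TPM in CE (1.85 ± 0.22), and LINC-ROR had 5.87 and 6.16 TPM in SNE, against 1.88 and 1.85 TPM in CE (1.29 ± 0.29). JAKMIP2-AS1 had 1.63 and 1.81 TPM in SNE, against 0.139 and 0.215 TPM in CE (1.21 ± 0.17). LNCPRESS1 was lower, with 202 and 195 TPM in SNE, against 396 and 402 TPM in CE (−1.004 ± 0.38, adjusted p = 0.0351), and this call was lost when any 1 of the 4 libraries was left out (adjusted p 0.0953 to 0.115). With equal medians LINC01108 was the 1 gene called higher, and under quantile normalisation LINC01108 and ESRG were.

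On day 5, 3 of the 7 were called between SNE and CE, 2 higher and 1 lower, where 44.1% of genes were called, 35.9% higher and 8.17% lower, and the median gene was at 0.65. LINC01108 had 41.3 and 48.4 TPM in SNE, against 8.04 and 7.64 TPM in CE (2.37 ± 0.69, adjusted p = 0.00586), a call that was lost with equal medians, quantile normalisation or a pseudocount of 0.1 (adjusted p 0.0828 to 0.203). JAKMIP2-AS1 had 1.81 and 2.13 TPM in SNE, against 0.301 and 0.385 TPM in CE (1.14 ± 0.17), and its sign turned with equal medians (−0.16). LNCPRESS1 had 33.4 and 21.5 TPM in SNE, against 68.0 and 63.7 TPM in CE (−1.26 ± 0.38, adjusted p = 0.00808), and without the SNE library of replicate 2 the difference of −0.96 missed both thresholds (adjusted p = 0.1). The library numbers in the labels jump within day 5, with CE before the jump and SNE after it, so a difference in handling and the extract cannot be told apart on that day.

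The change of the SNE-to-CE difference over days was tested as an interaction. On day 3 it was called lower for LINC02335 (−1.13 ± 0.32, adjusted p = 0.0343) and JAKMIP2-AS1 (−1.72 ± 0.23, adjusted p = 6.0e-05), where 3.76% of genes were called, 2.44% higher and 1.32% lower. On day 5 it was called lower for LINC-ROR (−1.52 ± 0.41, adjusted p = 0.0164), LINC02335 (−2.15 ± 0.32, adjusted p = 9.1e-05) and JAKMIP2-AS1 (−1.78 ± 0.23, adjusted p = 2.6e-05), where 7.16% were called, 5.63% higher and 1.53% lower. LINC02335, JAKMIP2-AS1 and, on day 5, LINC-ROR were under 1 TPM in CE by then. With a pseudocount of 0.1 none of the 7 was called on either day. The interaction was then −0.05 for LINC02335 and −0.23 for JAKMIP2-AS1 on day 3, and −0.74 for both on day 5, while that of LINC-ROR stayed as large (−1.50, adjusted p = 0.182). The day 3 call of LINC02335 was lost when any 1 of the 8 libraries was left out (adjusted p 0.0794 to 0.112). That of LINC-ROR on day 5 was lost without CE replicate 1 or SNE replicate 1 of day 5, either CE library of day 0 or SNE replicate 1 of day 0 (adjusted p 0.0503 to 0.101). On the TPM scale the SNE level of LINC02335 was 8.10, 9.28 and 7.96 times that of CE on days 0, 3 and 5, and that of JAKMIP2-AS1 was 7.82, 9.74 and 5.75 times. For LINC-ROR it was 3.23, 3.22 and 1.42 times, with 0.306 and 1.24 TPM in SNE of day 5, against 0.552 and 0.538 TPM in CE. For LINC01108, ESRG, LINC00458 and LNCPRESS1 no interaction was called in the fit to all libraries, and in a fit without CBNE and PE that of LINC01108 on day 3 (1.05) was called (adjusted p = 0.000191).

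ME was compared with CE on day 0. LNCPRESS1 was the 1 gene of the 7 called, where 16.6% of genes were called, 1.41% higher and 15.2% lower. It had 230 and 223 TPM in ME, against 522 and 533 TPM in CE (−1.22 ± 0.38, adjusted p = 0.0202). The call was lost when any 1 of the 4 libraries was left out (adjusted p 0.0784 to 0.0896), and the sign turned under quantile normalisation (0.37) and with totals taken without mitochondrial and structured RNA (0.11). LINC02335 had 53.0 and 55.6 TPM in ME, against 28.0 and 28.5 TPM in CE, and JAKMIP2-AS1 had 54.9 and 58.8 TPM in ME, against 31.3 and 33.1 TPM in CE. Both lay above CE without overlap, by 0.92 ± 0.22 and 0.80 ± 0.17, under the size asked for. Both were called under quantile normalisation (1.89 and 1.80) and with totals taken without mitochondrial and structured RNA (2.24 and 2.12), and LINC02335 also with equal medians (1.10). LINC-ROR (0.41 ± 0.29) was called under the first 2 of these settings (1.46 and 1.73), and LINC01108 (0.50 ± 0.69) under quantile normalisation (1.83). ESRG had 2322 and 2275 TPM in ME, against 4002 and 4055 TPM in CE (−0.81 ± 0.33, adjusted p = 0.0717).

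The third comparison set the chromatin-bound extract and the pellet against the soluble nuclear extract. On day 0, LNCPRESS1 was higher in CBNE and in PE than in SNE, and the other 6 lncRNAs were lower in both. In CBNE all 7 were called, 1 higher and 6 lower, where 49.4% of genes were called, 7.66% higher and 41.8% lower, and the median gene was at −0.90. In PE all 7 were called as well, 1 higher and 6 lower, where 51.8% were called, 4.94% higher and 46.9% lower, and the median gene was at −1.10.

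LNCPRESS1 had 2021 and 1512 TPM in CBNE and 1954 and 1672 TPM in PE, against 370 and 368 TPM in SNE. Its means in CBNE and PE were 4.79 and 4.91 times that in SNE, and the groups did not overlap. The log2 differences were 2.24 ± 0.38 (adjusted p = 3.4e-05) and 2.29 ± 0.38 (adjusted p = 2.5e-05), and both kept their call and direction under every alternative listed in the closing part. The depth behind these levels was small. On day 0, 1 read on 1 kb was worth 32.8 to 38.5 TPM in CBNE and 25.3 to 30.3 TPM in PE.

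ESRG had 244 and 280 TPM in CBNE and 986 and 645 TPM in PE, against 5978 and 6001 TPM in SNE, differences of −4.51 ± 0.33 and −2.91 ± 0.33. LINC01108 had 12.7 and 7.38 TPM in CBNE and 215 and 57.8 TPM in PE, against 1291 and 1324 TPM in SNE, differences of −6.93 ± 0.69 and −3.54 ± 0.69, and its PE libraries were far apart. LINC00458 had 35.5 and 34.5 TPM in CBNE and 113 and 57.7 TPM in PE, against 541 and 562 TPM in SNE, differences of −3.94 ± 0.43 and −2.76 ± 0.43. For these 3 RNAs CBNE was lowest, PE in between and SNE highest, without overlap.

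LINC-ROR had 7.68 and 2.24 TPM in CBNE and 24.6 and 21.1 TPM in PE, against 152 and 147 TPM in SNE, differences of −4.83 ± 0.29 and −2.66 ± 0.29. LINC02335 had 6.16 and 4.79 TPM in CBNE and 32.5 and 16.6 TPM in PE, against 224 and 234 TPM in SNE, differences of −5.16 ± 0.22 and −3.25 ± 0.22. JAKMIP2-AS1 had 26.1 and 26.6 TPM in CBNE and 44.4 and 30.5 TPM in PE, against 245 and 259 TPM in SNE, differences of −3.21 ± 0.17 and −2.74 ± 0.17. In CBNE these 3 and LINC01108 were listed below the worth of 1 read on 1 kb (32.8 to 38.5 TPM). That yardstick holds for a length of 1 kb, so the number of reads behind their levels in these sparse libraries is not known. These genes differ in length, so that number need not be alike among them.

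**Figure D3:**
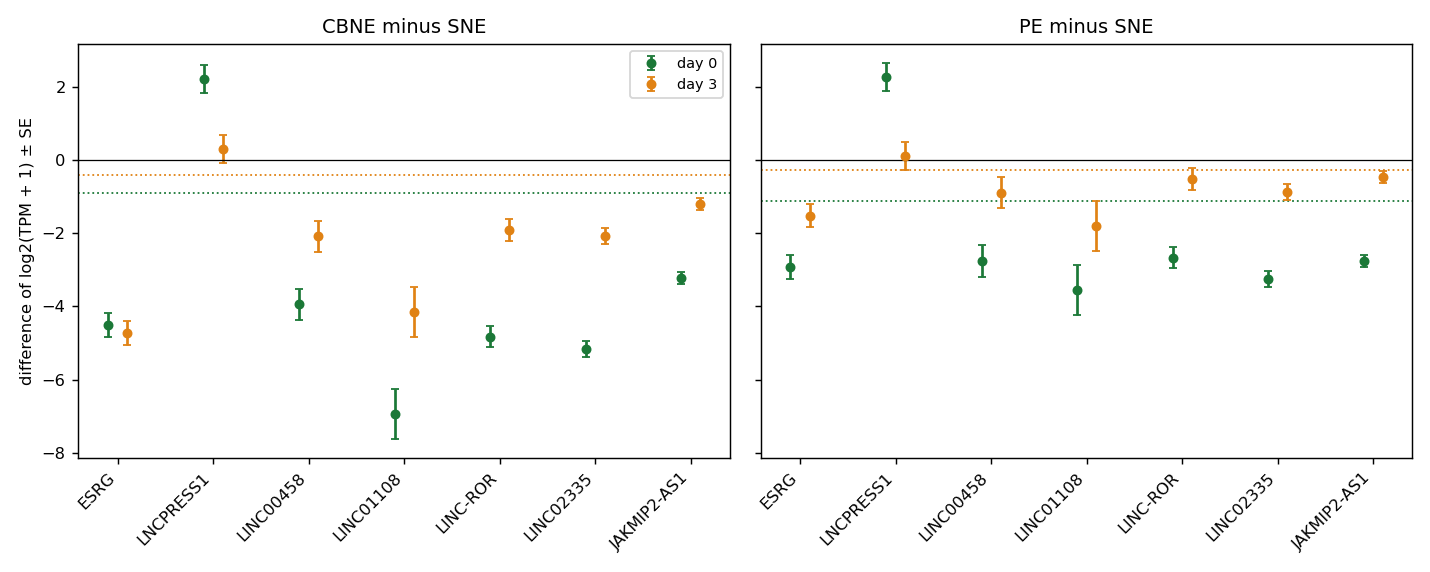
Differences of log2(TPM + 1) with standard errors (n = 2 libraries per group) for CBNE minus SNE (left) and PE minus SNE (right) on days 0 and 3, with dotted lines at the median of all tested genes. LNCPRESS1 stands at 2.24 and 2.29 on day 0, and the other 6 lncRNAs lie below 0.

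On day 3 the levels of LNCPRESS1 in the 3 extracts were closer to each other. It had 314 and 195 TPM in CBNE and 228 and 201 TPM in PE, against 202 and 195 TPM in SNE, and neither difference was called (0.32 ± 0.38 and 0.11 ± 0.38). With equal medians the CBNE difference was called (1.20, adjusted p = 0.00564), and without CBNE replicate 1 it was −0.02. The change of its PE difference from day 0 to day 3 was −2.18 ± 0.54 (adjusted p = 0.00281), in a comparison chosen after the values were seen, in which 32.4% of all genes were called, 31.2% higher and 1.17% lower. The other 6 were lower in CBNE than in SNE on day 3, where 41.8% of genes were called, 13.2% higher and 28.6% lower. The call of JAKMIP2-AS1 (−1.20 ± 0.17) was lost with equal medians (−0.31, adjusted p = 0.0856), under quantile normalisation (−0.24, adjusted p = 0.268) and without CBNE replicate 1 (−0.95). That of LINC-ROR (−1.91 ± 0.29) was lost under quantile normalisation (−0.84). In PE of day 3 only ESRG was called, with 864 and 789 TPM, against 2310 and 2396 TPM in SNE (−1.51 ± 0.33, adjusted p = 0.00145), where 13.4% of genes were called, 5.41% higher and 7.96% lower. On day 5 LNCPRESS1 was listed at 0 in both CBNE libraries, in which 1 read on 1 kb was worth 63.4 and 50.9 TPM. Its SNE levels were 33.4 and 21.5 TPM, so at this depth a listing of 0 does not show absence.

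The fall by day 5 was seen in CE, ME and SNE separately. All 7 lncRNAs were lower on day 5 than on day 0 in each of the 3 extracts, where 14.4%, 17.2% and 19.8% of genes were called in CE, ME and SNE. Calls in the lower direction made up 9.98% of genes in CE, 8.66% in ME and 10.2% in SNE, and those in the upper direction 4.41% in CE, 8.59% in ME and 9.56% in SNE. The smallest falls were those of LNCPRESS1 and ESRG, by 2.98 ± 0.38 and 2.94 ± 0.33 in CE, 2.43 ± 0.38 and 2.17 ± 0.33 in ME, and 3.73 ± 0.38 and 3.08 ± 0.33 in SNE. In SNE of day 5, ESRG had 686 and 734 TPM, LINC00458 25.1 and 27.8 TPM and LINC02335 0.945 and 1.03 TPM, against 5978 and 6001, 541 and 562, and 224 and 234 TPM on day 0.

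**Figure D4:**
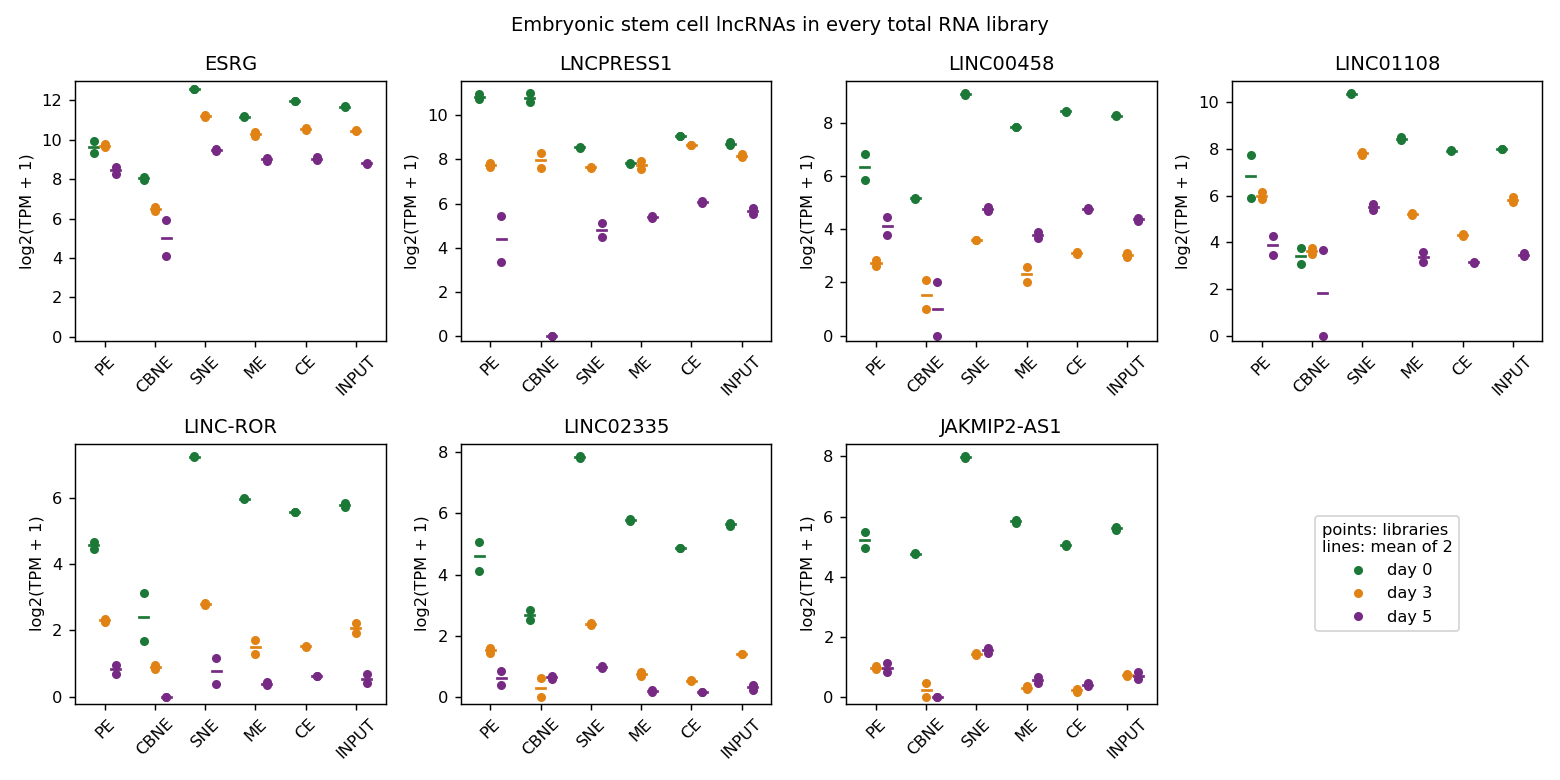
Log2(TPM + 1) of each of the 7 lncRNAs in the 36 total RNA libraries by fraction, with days 0, 3 and 5 side by side; points are libraries and short lines the mean of 2. SNE holds the highest day 0 points for every gene but LNCPRESS1, whose PE and CBNE libraries reach 1512 to 2021 TPM; CBNE and PE libraries are sparse.

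PolyA RNA of day 0 gave a second reading of nucleus against cytoplasm. It was normalised in a table of its own, so its levels are not set against those of total RNA, and it was prepared from a nuclear sample that the labels do not divide further. Of the 7 lncRNAs 6 were tested, and 2 were called, both higher in the nucleus, where 36.3% of the 16667 tested genes were called, 30% higher and 6.22% lower. The median gene was at 0.50, and MALAT1 was higher in the nucleus by 5.30 ± 0.04 while GAPDH differed by −0.68 ± 0.03.

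LINC01108 had 151 and 159 TPM in the nucleus, against 13.7 and 13.9 TPM in the cytoplasm (3.40 ± 0.05, adjusted p = 2.8e-06). LINC-ROR had 10.8 and 10.9 TPM in the nucleus, against 3.54 and 4.22 TPM in the cytoplasm (1.28 ± 0.12, adjusted p = 0.000218), and it missed the call with equal medians (0.72) and under quantile normalisation (0.56). LINC02335 had 69.8 and 64.6 TPM in the nucleus, against 33.4 and 40.3 TPM in the cytoplasm, a difference of 0.85 ± 0.10 that was under the size asked for.

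LINC00458 was lower in the nucleus, with 50.3 and 53.6 TPM, against 86.0 and 84.4 TPM in the cytoplasm (−0.70 ± 0.05), a difference under the size asked for that passed it with equal medians (−1.26). LNCPRESS1 had 308 and 308 TPM in the nucleus, against 263 and 258 TPM in the cytoplasm (0.24 ± 0.04), and the sign turned with equal medians (−0.32). JAKMIP2-AS1 had 3.05 and 3.26 TPM in the nucleus, against 3.45 and 3.18 TPM in the cytoplasm, which overlapped (−0.05 ± 0.14). Here too, reads on the 524 exon bases that it shares with JAKMIP2, or on the whole overlap if introns were counted, cannot be told apart. This reading is therefore uncertain. ESRG was listed at 0 in all 4 polyA libraries although it was the most abundant of the 7 in total RNA, so this table gives no reading of where its RNA lay. LINC01108 and LINC-ROR were thus called higher in the nuclear sample of both tables. LINC02335 and JAKMIP2-AS1 were called in total RNA of day 0 and not in polyA RNA. Whether introns were counted in either table is not given, and the difference between the tables was not tested.

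The genes lie on 6 chromosomes. On GRCh38 with GENCODE 29, LINC-ROR is at chr18:57054558-57072119, LINC01108 at chr6:14280127-14285454, LINC00458 at chr13:54115783-54132866 and ESRG at chr3:54632122-54639857, all on the minus strand. LNCPRESS1 is at chr7:101299578-101301346, LINC02335 at chr13:55062945-55161490 and JAKMIP2-AS1 at chr5:147559994-147662009, on the plus strand. The total RNA table types all 7 as lncRNA. ESRG lies within an intron of the calcium channel subunit gene CACNA2D3, on the other strand, and shares no exon base with it. If introns were counted without regard to strand, reads there could not be told apart.

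The nearest coding genes did not all follow the lncRNAs. CD83, 143209 bases from LINC01108, had 7.35 and 8.95 TPM on day 0, 2.75 and 2.69 TPM on day 3 and 1.33 and 1.89 TPM on day 5 in INPUT, and was lower on both days (−1.29 ± 0.20 and −1.81 ± 0.20). JAKMIP2 had 12.3 and 13.0 TPM, 8.52 and 10.1 TPM, and 2.76 and 2.95 TPM, and was lower on day 5 only (−1.82 ± 0.15). CACNA2D3 was higher on day 3, with 7.73 and 9.17 TPM, against 2.92 and 3.24 TPM on day 0 (1.21 ± 0.16). WDR7, 17952 bases from LINC-ROR, and IFT22, 12021 bases from LNCPRESS1, were not called on day 3 or day 5 (WDR7 0.48 ± 0.22 and 0.15 ± 0.22, IFT22 0.53 ± 0.54 and 0.50 ± 0.54). OLFM4, 1063726 bases from LINC00458, and PRR20A, 1979428 bases from LINC02335, did not pass the filter on low values.

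Pearson's r of log2(TPM + 1) over the 24 INPUT, CE, ME and SNE libraries describes which genes had the most similar pattern. These libraries share days and extracts, so they are not independent points. Among the 7, r ran between 0.388 for LINC00458 with LNCPRESS1 and 0.987 for LINC-ROR with LINC02335. LNCPRESS1 had its highest r with ESRG (0.855), and LINC00458 with JAKMIP2-AS1 (0.948). Over all tested genes LINC-ROR was most like SLCO4A1 (0.991), UNC13A (0.991) and SLC17A9 (0.990), and ESRG most like HAPLN3 (0.990), KIF5A (0.988) and DNMT3B (0.985), a DNA methyltransferase of pluripotent cells. LINC00458 was most like LINC01356 (0.987), CMKLR1 (0.971) and KCNJ12 (0.963). For LINC01108 they were PPARGC1B (0.995), C9orf129 (0.993) and LPAR3 (0.992). LNCPRESS1 was most like ALPL (0.968), the alkaline phosphatase used as a stem cell stain, EMSLR (0.963) and PTPRN (0.961). LINC02335 was most like MIRLET7BHG (0.995), AC138904.3 (0.994) and GPR139 (0.993), and JAKMIP2-AS1 like D21S2088E (0.992), OR52A1 (0.991) and LINC01844 (0.991).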

How the data were processed

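In the authors' deposited tables, one of total RNA and one of polyA RNA, the values are TPM, in which the length of the gene and the size of the library are divided out, so that each is relative to the other RNA of its library. The unit was read from the values. The submitters' processing notes name hg38, HISAT2 2.0.5, featureCounts 1.6.2, Salmon 1.3.0 and GATK, with no role given here. Strandedness is not given in the sources used here.

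Samples were grouped by their titles. The filter asked for 1 TPM in 2 libraries. The test was limma 3.58.1 (R 4.3.3) on log2(TPM + 1), with a trended robust prior, 18 residual degrees of freedom for the 36 total RNA libraries and 2 for the 4 polyA libraries, and p-values adjusted over all tested genes. Simulated data with 200 genes changed by 2 on the log2 scale gave 81.5% recovered (day 5 against day 0 INPUT). Named genes were the 7 lncRNAs, the core factors, MALAT1, GAPDH, nearest coding genes, the 3 most correlated genes and, per list, up to 3 called per direction with the largest change (some items are not reported here), plus a few named after their values were seen (SIRT6, FIRRE by day 5). The members and lists were chosen with earlier results of these data known. Replicate numbers did not pair the samples.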

Additional observations from a re-analysis of the deposited data

Results flagged for a closer look

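Each of the following is a difference between extracts that changed between days, called by an interaction term in limma. The SNE-to-CE difference was smaller on day 3 than on day 0 for LINC02335 (−1.13, adjusted p = 0.0343) and JAKMIP2-AS1 (−1.72, adjusted p = 6.0e-05), and smaller on day 5 than on day 0 for LINC-ROR (−1.52, adjusted p = 0.0164), LINC02335 (−2.15, adjusted p = 9.1e-05) and JAKMIP2-AS1 (−1.78, adjusted p = 2.6e-05). With a pseudocount of 0.1 none was called: LINC02335 was at −0.05 and JAKMIP2-AS1 at −0.23 on day 3, and both at −0.74 on day 5, but LINC-ROR stayed as large (−1.50, adjusted p = 0.182). The PE-to-SNE difference changed from day 0 to day 3 by 2.16 for LINC-ROR (adjusted p = 0.000315), 1.87 for LINC00458 (adjusted p = 0.0173), 2.39 for LINC02335 (adjusted p = 1.0e-05), 1.40 for ESRG (adjusted p = 0.0193), 2.29 for JAKMIP2-AS1 (adjusted p = 6.0e-07) and −2.18 for LNCPRESS1 (adjusted p = 0.00281). The median gene changed by 0.87 in the same comparison, and the PE libraries of day 0 were the sparser ones (6.62 to 7.32 TPM for 1 read on 1 kb on day 3, against 25.3 to 30.3 TPM on day 0). The part of depth in this change was not tested. The calls of LINC00458 and ESRG were lost without PE replicate 1 of day 3 or PE replicate 2 of day 0 (adjusted p 0.0534 to 0.103). With equal medians, the calls of LINC02335 and LNCPRESS1 were the 2 left.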

How the results depend on the processing

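Of 1412 values recomputed for single lncRNAs, 1266 kept direction and call, 90 lost the call, 25 gained one and 31 changed sign. Fits that leave out a library leave its group with 1 library, assumed to vary like the others. The falls by day 5 in INPUT, CE, ME and SNE, and all 7 calls of CBNE and PE against SNE on day 0, were kept in number and direction under every alternative run. The cause of the other changes was not tested.

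With the median of the tested genes set equal, SNE against CE turned sign on day 0 for LINC00458 (−0.21) and ESRG (−0.30), on day 3 for LINC00458 (−0.60) and ESRG (−0.44), and on day 5 for LINC-ROR (−1.15), LINC00458 (−1.29), LINC02335 (−0.48), ESRG (−0.87) and JAKMIP2-AS1 (−0.16). It gave 2 calls on day 3 (1 higher, 1 lower), where the split in the report is 4 to 1, and 3 calls on day 0 (2 higher, 1 lower) and on day 5 (0 higher, 3 lower). It also gave 2 calls for ME against CE, 2 for the PE interaction, and turned the day 3 interaction of ESRG (−0.14), JAKMIP2-AS1 in INPUT of day 5 against day 3 (0.042) and LNCPRESS1 in polyA RNA (−0.32).

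Quantile normalisation gave 2 calls for SNE against CE on day 3, 4 for ME against CE, 5 for each SNE interaction, 2 for PE against SNE on day 3 and 1 in polyA RNA. It turned LNCPRESS1 (0.49) on day 0, LINC00458 on day 3 (−0.54) and day 5 (−0.91), LINC-ROR on day 5 (−0.50), LINC00458 (0.87) and LNCPRESS1 (0.37) in ME, ESRG in the day 5 interaction (1.08) and JAKMIP2-AS1 in INPUT (0.034). Totals without mitochondrial and structured RNA gave 3 calls for ME against CE, with LINC00458 (0.73), LNCPRESS1 (0.11) and ESRG (0.52) turned, and 1 for the day 3 interaction. A pseudocount of 0.1 left 0 calls for both SNE interactions and turned LINC01108 in the day 5 interaction (0.064).

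Leaving out 1 library gave 4 calls for INPUT of day 3 against day 0 and of day 5 against day 3, 0 for ME against CE, 4 for SNE against CE on day 3, 2 to 3 on day 5, 1 for the day 3 and 2 to 3 for the day 5 interaction, 4 to 7 for the PE interaction and 5 to 6 for CBNE against SNE on day 3. Values whose sign turned in such fits ran from −0.24 to 0.54 for LINC-ROR and −0.068 to 0.079 for LINC00458 in SNE against CE of day 5, −0.17 to 0.053 for LINC01108 in the day 5 interaction, −0.14 to 0.096 for JAKMIP2-AS1 in INPUT of day 5 against day 3, and −0.024 to 0.66 for LNCPRESS1 in CBNE against SNE of day 3. The fit with a replicate block changed 1 call, LINC00458 in INPUT of day 5 against day 3 (1.34, adjusted p = 0.0503), and deviations of same-numbered libraries correlated between −0.122 and 0.0642.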
